A study of Mus musculus with 2 samples.

Results

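The genes described here act in the nucleolus, where ribosomes are built: 38 genes of RNA polymerase I, of the small nucleolar ribonucleoproteins (snoRNPs) and of the factors that cut, modify and assemble ribosomal RNA. They were taken by name from a list, and all 38 were found among the 45706 Ensembl gene IDs of the count files and passed the filter on low counts, which left 12026 measured genes. The filter asked for 20 counts over both libraries and for a mean level of 1 CPM, the counts per 1000000 counts of a library. RNA was sequenced from intestinal stem cells of 4-month-old Lgr5-EGFP-IRES-creERT2 mice, sorted for high GFP. In this strain the Lgr5 locus, which is active in crypt-base stem cells, drives the reporter and an inducible Cre, and both groups carried the allele. 1 library came from fasted mice and 1 from mice fed standard chow ad libitum. The labels give no length of the fast, no diet before it, no sex and no number of animals behind a library. The comparison asks how fasting altered gene expression in these cells.

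Ribosome production starts with polymerase I, which transcribes the long ribosomal RNA precursor from repeated genes with the help of the factors UBF, SL1 and TIF-IA. SnoRNPs then modify the precursor, box C/D particles by methylation of ribose and box H/ACA particles by pseudouridylation, while large assemblies fold and cut it into the RNAs of the small and the large subunit. Cells that grow and divide make many ribosomes, the transcription factor MYC is known to drive many of these genes, and mTORC1 signalling is known to link the process to nutrient supply. Stem cells at the crypt base divide often, so that the nucleolar machinery is in steady use there.

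With 1 library a group there was no replicate and no test. Ratios are given as log2 of fasted over fed, with the libraries scaled by the median of ratios, and the 95% interval in brackets covers counting error only, not the variation between mice. A gene is said to lie above or below when this interval excludes a ratio of 1. The fasted library held 5020056 counts and the fed library 6985316 counts, so that 1 count equalled 0.199 and 0.143 CPM. The 38 genes took 30260 counts in the fasted library and 39501 in the fed library, which is 0.603% and 0.565% of all counts. Lgr5 had 340 CPM in the fasted and 484 CPM in the fed library.

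Nucleolar genes differed little between the libraries, and most had a small positive ratio. None of the 38 reached a 1.5-fold or a 2-fold ratio in either direction. Over all measured genes, 5.11% were at least 1.5-fold higher and 5.05% at least 1.5-fold lower with an interval that excluded 1, and 2.51% and 1.91% passed 2-fold. The members' ratios ran from 0.757-fold to 1.33-fold, with a median of 0.13 (1.10-fold), against -0.018 over all measured genes. 28 of the 38 had a positive ratio (73.7%), against 47.9% of all measured genes. 12 lay above, 2 lay below and 24 had an interval that held 1. Over all measured genes 16.7% lay above and 19.2% below. In the members' range of mean level, 27.1 to 1433 CPM, deeper counts narrow the intervals, and there 1459 of 7282 genes lay above and 1716 below, with a median of -0.016. At 1.5-fold that range held 198 genes higher and 179 lower. The members varied less among themselves than the genes of that range, with SDs of 0.18 and 0.35 on the log2 scale, and their intervals reached a median of 0.18 to either side. Their 31.6% above and 5.26% below are described only, since the list was drawn up with earlier results of these libraries known. Of the 18 members whose exons overlap no other annotated gene, 4 lay above and 1 below.

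**Figure D1:**
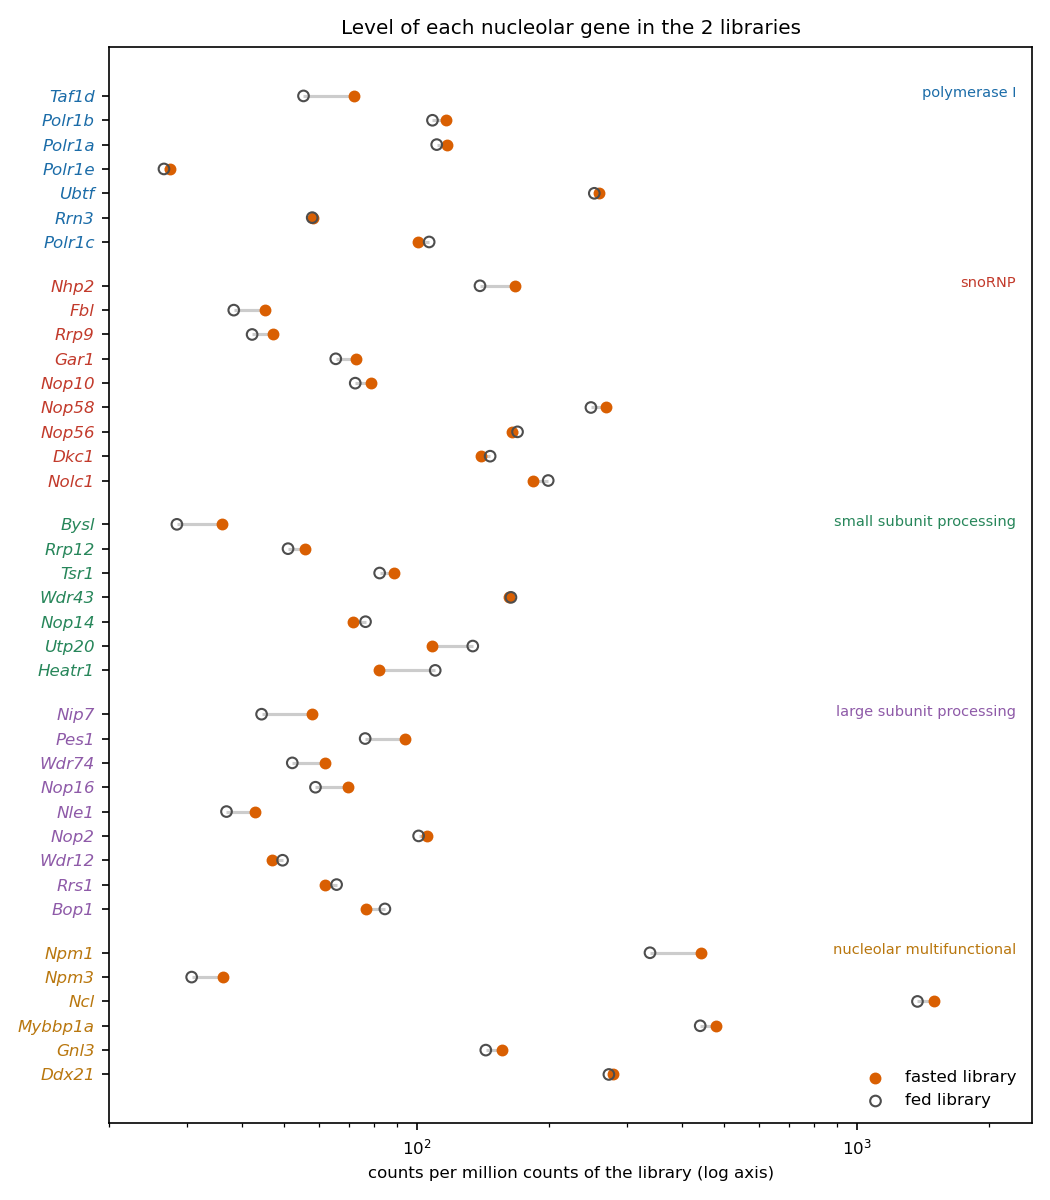
Level of each of the 38 nucleolar genes in CPM (log axis), grouped by role, with filled points for the fasted library and open circles for the fed library; a line joins the 2 values of a gene. Ncl stands highest at 1493 and 1373 CPM and Polr1e lowest at 27.5 and 26.6 CPM, and the order of the genes is nearly the same in both libraries.

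Levels were compared between genes as CPM per kilobase of coding sequence. This length leaves out untranslated regions, while a gene's counts can include their reads. A gene with a short coding part, such as Nop10 with 192 coding and 1109 exon bases, is thereby raised. The order of the genes therefore depends on the length used. On this scale Ncl, whose product nucleolin binds precursor RNA and chromatin, stood first at 704 in the fasted and 647 in the fed library. Npm1, which encodes the histone and ribosome chaperone nucleophosmin, followed at 505 and 387. Next came 2 small proteins of the box H/ACA particle, Nop10 at 409 and 377 and Nhp2 at 365 and 303. The lowest levels were those of 3 small subunit genes, Heatr1 at 12.8 in the fasted and 17.1 in the fed library, Utp20 at 13.0 and 16.0 and Rrp12 at 14.3 and 13.1. Across the 38 genes the levels of the libraries had a Spearman correlation of 0.988, a description over genes that share their libraries. Ncl alone supplied 24.8% of the members' counts in the fasted and 24.3% in the fed library. Without it the median ratio of the other 37 genes was 0.13.

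Polymerase I genes were close to equal in the libraries before any correction for gene length, with a median of 0.07 and 1 of 7 above. Polr1a and Polr1b encode the large catalytic subunits. Polr1a had 589 counts (117 CPM) in the fasted library, against 775 counts (111 CPM) in the fed library, a ratio of 0.10 (-0.06 to 0.26). For Polr1b the values were 585 counts (117 CPM) in the fasted and 758 counts (109 CPM) in the fed library, a ratio of 0.12 (-0.03 to 0.28). Both subunits thus had similar counts and similar small ratios, with intervals that held 0. Both lay above when the running median of genes of like exon length was subtracted. Polr1a then stood at 0.23 (0.07 to 0.39) and Polr1b at 0.19 (0.03 to 0.35). With coding length in its place they stood at 0.28 (0.12 to 0.43) and 0.26 (0.10 to 0.42). The smaller subunit genes were close to equal: Polr1c, shared with polymerase III, had 505 counts in the fasted and 745 in the fed library (-0.06, -0.23 to 0.10), and Polr1e had 138 and 186 (0.07, -0.26 to 0.39).

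Among the factors that bring polymerase I to its promoter, Ubtf encodes UBF, which binds along the ribosomal DNA. It had 1303 counts (259.6 CPM) in the fasted and 1768 counts (253 CPM) in the fed library, a ratio of 0.06 (-0.05 to 0.16). With the running median over coding length subtracted, Ubtf lay above at 0.14 (0.03 to 0.24). Rrn3 encodes TIF-IA, the factor that makes polymerase I able to initiate and whose protein is known to respond to nutrients. Its message had 291 counts in the fasted library and 404 counts in the fed library, which are 58.0 and 57.8 CPM, and its ratio was 0.02 (-0.20 to 0.25). Counting error alone leaves room for a ratio between 0.872-fold and 1.19-fold.

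Taf1d, a subunit of the promoter factor SL1 (chromosome 9, 15306214 to 15316991, GRCm38), was the member among these 7 that lay above without correction for length. It had 362 counts (72.1 CPM) in the fasted library, against 386 counts (55.3 CPM) in the fed library, a ratio of 0.41 (0.19 to 0.62). The gene is also a snoRNA host, with 8 annotated snoRNAs inside its bounds, and 13.6% of its exon length overlaps other annotated genes. Since the counting's strand setting is not given, reads of overlapping genes cannot be told apart there.

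SnoRNP genes had a median of 0.14, with 2 of 9 above and none below, and a median of 0.07 after correction for exon length, in which the running median of genes of like length is subtracted. In the box C/D core, Fbl encodes the methyltransferase fibrillarin, and Nop56 and Nop58 encode the related proteins that hold the particle together. Fbl had 227 counts (45.2 CPM) in the fasted and 268 counts (38.4 CPM) in the fed library, a ratio of 0.26 (-0.0032 to 0.52). Nop56 had 825 counts (164 CPM) in the fasted library and 1183 counts (169 CPM) in the fed library, a ratio of -0.022 (-0.15 to 0.11). For Nop58 there were 1352 counts (269 CPM) in the fasted and 1737 counts (249 CPM) in the fed library, a ratio of 0.14 (0.03 to 0.24). Of these partners in 1 particle Nop58 alone lay above, and the intervals of all 3 overlapped. Rrp9, which binds the U3 snoRNA, had 237 and 295 counts in the fasted and fed libraries (0.18, -0.07 to 0.43).

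In the box H/ACA core the ratios of the 4 subunits had a median of 0.16, which was 0.023 after correction for exon length and 0.047 after that for coding length. Dkc1 encodes dyskerin, the pseudouridine synthase, and had 702 counts (139.8 CPM) in the fasted and 1025 counts (147 CPM) in the fed library, a ratio of -0.048 (-0.19 to 0.09). Nhp2, which encodes an RNA-binding subunit (chromosome 11, 51619735 to 51623714), had 840 counts (167 CPM) in the fasted library and 972 counts (139 CPM) in the fed library, a ratio of 0.29 (0.15 to 0.42). The intervals of these 2 subunits of the same particle did not overlap, but they did after correction for exon or coding length, and Nhp2 stood at 0.10 (-0.035 to 0.24) after that for exon length. Gar1 (366 counts in the fasted and 457 in the fed library) and Nop10 (394 and 506) lay between them, at 0.18 (-0.025 to 0.38) and 0.14 (-0.06 to 0.33). Nolc1, a chaperone that snoRNPs meet on their way through Cajal bodies, had 924 counts in the fasted and 1389 in the fed library and a ratio of -0.09 (-0.21 to 0.03), the lowest of the 9.

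Small subunit factors had the widest spread of the 5 roles, from -0.40 to 0.36, and held both members that lay below. Their median was 0.0099, which turned to -0.011 when libraries were scaled to total counts. It was 0.037 after correction for exon length and 0.080 after that for coding length. Their summed counts, which include those of both members below, gave -0.07 (-0.14 to -0.0075). Heatr1 (chromosome 13, 12395027 to 12440289), a component of the early small subunit processome that is also needed for ribosomal DNA transcription, had 412 counts (82.1 CPM) in the fasted library, against 769 counts (110.1 CPM) in the fed library. Its ratio of -0.40 (-0.58 to -0.23) was the lowest of all 38. Utp20 (chromosome 10, 88746607 to 88826804), a very large scaffold protein of the same assembly, had 544 counts (108 CPM) in the fasted and 936 counts (134 CPM) in the fed library, a ratio of -0.29 (-0.44 to -0.13). These are the longest coding sequences of the list, 6429 and 8367 bases.

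Bysl, an assembly factor of later small subunit precursors, had the opposite sign, with 181 counts (36.1 CPM) in the fasted and 199 counts (28.5 CPM) in the fed library and a ratio of 0.36 (0.06 to 0.66). Its exons overlap those of a neighbouring gene over 9.37% of their length. The other 4 genes had intervals that held 0. Wdr43, of the first subcomplex to join the precursor, had 815 counts in the fasted and 1143 in the fed library (0.0099, -0.12 to 0.14). Nop14, a core protein of the processome, had 359 and 534 counts (-0.08, -0.27 to 0.12), and Rrp12, a factor of precursor export, had 279 and 356 (0.15, -0.09 to 0.38). Tsr1, a GTPase-like factor of late cytoplasmic assembly, had 445 counts in the fasted and 575 in the fed library (0.13, -0.05 to 0.31), and 32.3% of its exon length overlaps another gene.

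Large subunit factors had a median of 0.23 (1.18-fold), with 4 of 9 above and none below. It was the highest of the roles, but not after correction for exon length, when it was 0.13 against 0.20 for the nucleolar proteins with several functions, nor with summed counts, when these were 0.14 and 0.17. Nip7 (chromosome 8, 107056877 to 107060931), a small RNA-binding protein of early large subunit precursors, had 290 counts (57.8 CPM) in the fasted and 310 counts (44.4 CPM) in the fed library, a ratio of 0.40 (0.17 to 0.64). Wdr74, which acts in early large subunit assembly in the nucleolus, had 311 counts (62.0 CPM) in the fasted library and 364 counts (52.1 CPM) in the fed library, a ratio of 0.27 (0.05 to 0.49). Nop16, an assembly factor of the same precursors, had 351 counts (69.9 CPM) in the fasted and 411 counts (58.8 CPM) in the fed library, also 0.27 (0.06 to 0.48). After correction for exon length the intervals of Wdr74 and Nop16 held 0. Nle1, known from mice to be needed in intestinal and blood stem cells, had 215 and 258 counts and a ratio of 0.23 (-0.033 to 0.50), just short of excluding 0.

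The PeBoW complex, made of the proteins of Pes1, Bop1 and Wdr12 and required for maturation of the large subunit RNAs, was uneven. Pes1 had 471 counts (93.8 CPM) in the fasted library, against 533 counts (76.3 CPM) in the fed library, a ratio of 0.32 (0.14 to 0.50). Bop1 had 385 counts (76.7 CPM) in the fasted and 591 counts (84.6 CPM) in the fed library, a ratio of -0.12 (-0.31 to 0.07). Wdr12 had 235 counts (46.8 CPM) in the fasted library and 346 counts (49.5 CPM) in the fed library, a ratio of -0.06 (-0.31 to 0.18). The interval of Pes1 lay wholly above that of Bop1 and overlapped that of Wdr12. The median of the 3 was -0.06, while their summed counts gave 0.07 (-0.047 to 0.18), so no direction can be given for the complex. The remaining large subunit genes had intervals that held 0: Rrs1, which brings the 5S particle into the precursor, had 311 counts in the fasted and 459 in the fed library (-0.06, -0.28 to 0.15), and Nop2, a methyltransferase of the large subunit RNA, had 529 and 705 (0.08, -0.08 to 0.25).

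Nucleolar proteins with several functions were all positive, 6 of 6, with a median of 0.14 and 4 above. Npm1 (chromosome 11, 33152287 to 33163206) had 2222 counts (443 CPM) in the fasted library, against 2366 counts (339 CPM) in the fed library, and its ratio of 0.41 (0.32 to 0.49) was the highest of the 38. Npm1 has processed pseudogenes, so that a part of its reads could have been assigned elsewhere or discarded. Ncl had 7496 counts (1493 CPM) in the fasted and 9590 counts (1373 CPM) in the fed library, a ratio of 0.14 (0.10 to 0.19), the narrowest interval of the list. Mybbp1a, a nucleolar regulator that binds MYB and is linked to p53 activation, had 2405 and 3077 counts and the same ratio of 0.14 (0.06 to 0.22). Gnl3, which encodes the GTP-binding protein nucleostemin, had 783 and 1002 counts (0.14, 0.0053 to 0.28). Its lower bound was nearer to 0 than the shift of -0.021 that scaling to total counts gave. Npm3, a relative of Npm1, had 182 counts in the fasted and 215 in the fed library (0.26, -0.035 to 0.55), and the RNA helicase gene Ddx21 had 1399 and 1908 (0.05, -0.0504 to 0.15).

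**Figure D2:**
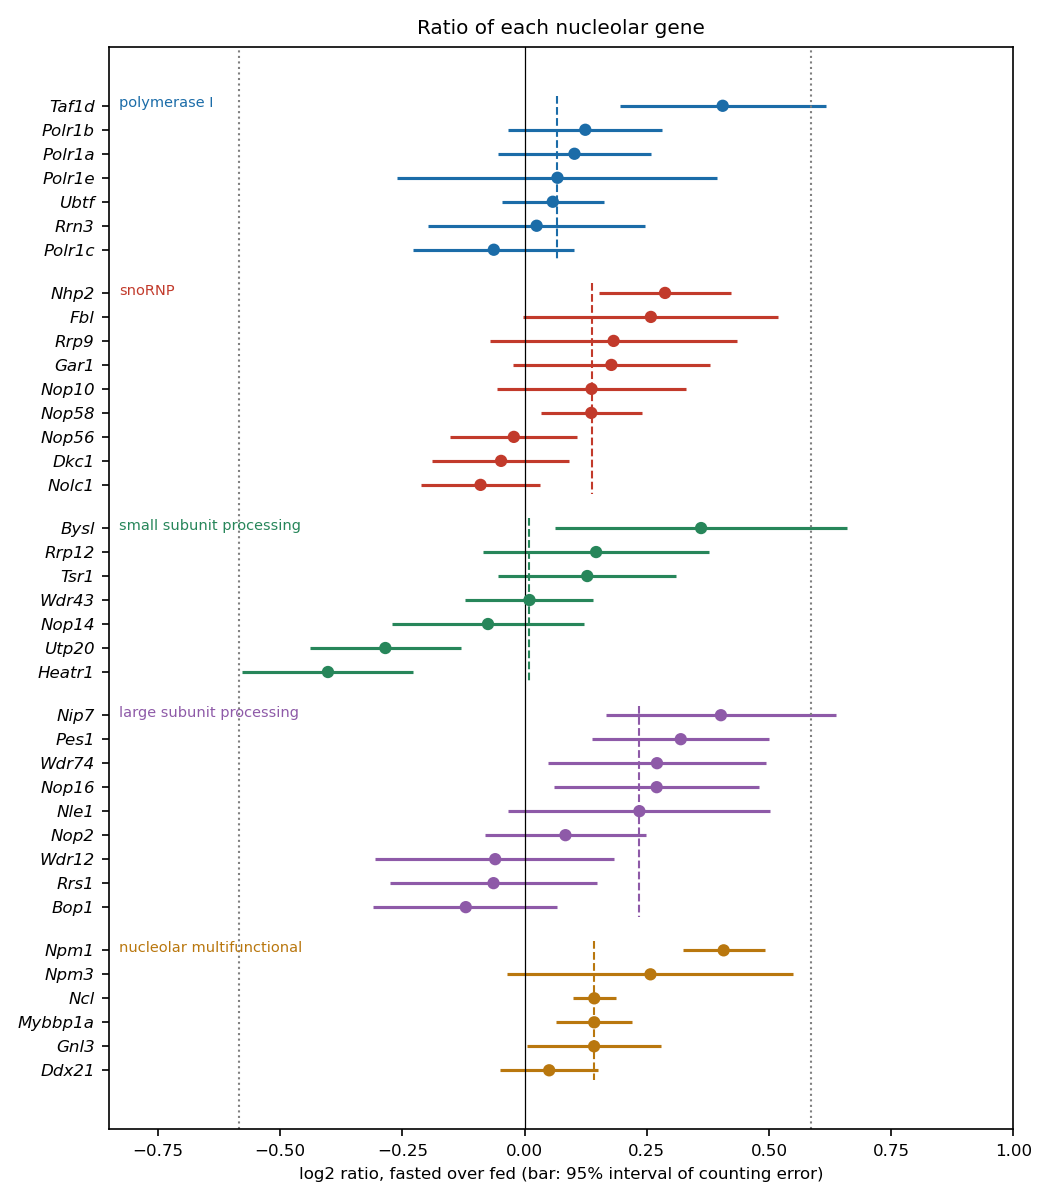
Log2 ratio of fasted over fed for each of the 38 genes, grouped and coloured by role; bars are 95% intervals of counting error, dashed lines the median of each role and dotted lines a 1.5-fold ratio. No point passes the dotted lines, and Heatr1 and Utp20 are the genes whose bars lie wholly below 0.

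The promoters were searched for the E-box CACGTG, the site that MYC and its partner MAX are known to bind, in the RefSeq windows of the build GRCm38.p6, which run from 250 bases before a start site to 50 after it. The motif reads the same on both strands, and no other motif was searched. Windows were at hand for 33 of the 38 genes, without Npm1, Bop1, Rrp12, Fbl and Rrs1. Of these, 8 held the motif (24.2%), against 12.1% of 9306 measured genes with a window and 8.09% of all 27025 genes with one. The 8 genes had a median ratio of 0.11, with 7 positive, and the other 25 had 0.14, with 18 positive. A match is a stretch of letters and was not shown to be bound in these cells. Rrn3 held the motif 2 times and Nop2 1 time upstream of the start site, and their 250 upstream bases are shown on the plus strand, with the motif in capitals, at chr16:13780449-13780698 and chr6:125131633-125131882.
Rrn3: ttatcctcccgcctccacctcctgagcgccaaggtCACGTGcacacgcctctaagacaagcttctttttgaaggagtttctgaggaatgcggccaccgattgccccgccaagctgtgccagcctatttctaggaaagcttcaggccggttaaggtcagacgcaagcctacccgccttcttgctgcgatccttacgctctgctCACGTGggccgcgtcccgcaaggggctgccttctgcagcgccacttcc
Nop2: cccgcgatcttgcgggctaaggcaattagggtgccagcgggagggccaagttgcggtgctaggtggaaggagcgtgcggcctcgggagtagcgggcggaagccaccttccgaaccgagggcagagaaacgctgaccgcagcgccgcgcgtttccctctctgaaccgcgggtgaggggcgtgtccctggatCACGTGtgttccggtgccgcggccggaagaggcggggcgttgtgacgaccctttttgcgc

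In the other 6 genes the motif began within the 50 bases after the RefSeq start site, at position 3 for Pes1 and 41 for Mybbp1a at the extremes. The bases around it are shown so that each match can be read in place, 5′ to 3′ on the strand of the gene. The sites lie at chr11:3963965-3963994 (plus) for Pes1, chr17:71616220-71616249 (plus) for Wdr43, chr11:82908355-82908384 (minus) for Nle1, chr11:74898092-74898121 (plus) for Tsr1, chr10:88826765-88826789 (minus) for Utp20 and chr11:72441355-72441376 (plus) for Mybbp1a.
Pes1: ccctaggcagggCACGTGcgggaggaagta
Wdr43: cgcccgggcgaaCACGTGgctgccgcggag
Nle1: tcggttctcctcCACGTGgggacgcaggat
Tsr1: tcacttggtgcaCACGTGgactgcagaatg
Utp20: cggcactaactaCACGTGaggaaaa
Mybbp1a: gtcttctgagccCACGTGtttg
The genes that carry the motif include Pes1, at a ratio of 0.32, and Utp20, at -0.29.

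Genes of the MYC network were measured for the same comparison. Myc itself had 1442 counts (287 CPM) in the fasted and 1872 counts (268 CPM) in the fed library, a ratio of 0.12 (0.02 to 0.22), and Max, the partner that MYC needs to bind DNA, had 392 and 543 counts (0.028, -0.16 to 0.22). Mycl lay above at 0.27 (0.13 to 0.40). The network's 1 gene past 2-fold was the rare Mycn, with 34 counts in the fasted and 23 in the fed library (1.06, 0.26 to 1.89), and Mxd3, which encodes a repressor that competes for MAX, lay below with 45 and 115 counts (-0.86, -1.39 to -0.35). Mga and Mnt, further MAX partners that repress, had -0.58 (-0.74 to -0.43) and -0.29 (-0.56 to -0.013). The other genes, Mxd1, Mxd4, Mlx and Mxi1, had intervals that held 0, with ratios from 0.0083 to 0.22.

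The wider set of ribosome biogenesis genes lay closer to the whole of the measured genes than the 38 did. Of 136 further genes, 134 were measured, and their median was 0.034, with 80 positive, 26 above and 14 below. The 51 other large subunit factors had a median of 0.022, with 11 above and 5 below, and the 45 other small subunit factors had 0.06, with 8 above and 2 below. Nop53, a large subunit factor, had 1962 counts (391 CPM) in the fasted and 2048 counts (293 CPM) in the fed library, a ratio of 0.44 (0.35 to 0.53), while the helicase gene Ddx51 had -0.34 (-0.61 to -0.07). Among the small subunit factors Fcf1 had 0.47 (0.13 to 0.80), Pwp2 had 0.44 (0.22 to 0.66) and Rrp36 had -0.41 (-0.73 to -0.08). No measured gene of these 2 lists passed 1.5-fold. The median of the 9 large subunit members, 0.23, thus stands beside 0.022 in the longer list of the same role.

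Other polymerase I genes, 14 in all, had a median of 0.18, with 5 above and 2 below, and a median of 0.08 after correction for exon length. Cd3eap and Twistnb, which encode polymerase I subunits, had 0.38 (0.012 to 0.75) and 0.33 (0.025 to 0.64), and Ttf1, which ends transcription of the ribosomal genes, had -0.46 (-0.79 to -0.14). Polr2k, a small subunit common to the polymerases that was picked out after its value was seen, was the 1 gene past 2-fold in this wider set, with 20 and 12 counts (1.23, 0.13 to 2.40). The 22 polymerase III genes had a median of -0.023, with 4 above and 4 below. RNA exosome genes, whose complex trims precursor RNA, had a median of 0.03 over 13 genes, with 2 above and 4 below, Dis3 among them at -0.37 (-0.56 to -0.18). SnoRNP assembly genes had a median of 0.010 over 11 genes, with none above and 1 below. This was Tcof1, whose product treacle works with UBF and polymerase I, at -0.29 (-0.44 to -0.15).

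Ribosomal protein genes were further from 0 than any of the nucleolar roles. Of 76 measured, 54 lay above and none below, 13 reached 1.5-fold, and the median was 0.43, as against 0.13 for the 38 nucleolar genes. After correction for exon length these medians were 0.31 and 0.10, and after that for coding length 0.34 and 0.16. Ribosomal protein genes have many processed pseudogenes that can share their reads, so single values of them are uncertain. SnoRNA host genes without a protein product had a median of 0.36 over 9 measured genes, with 6 above, and 0.18 after correction for exon length. Snhg12 had 241 counts in the fasted and 232 in the fed library (0.55, 0.29 to 0.82). Among the protein-coding members the 8 that hold annotated snoRNAs, 29 in all, had a median of 0.13, as had the 30 that hold none. By role, the members' counts were divided alike in the libraries, with 12.5% in the fasted and 12.7% in the fed library in polymerase I genes, and 10.0% and 11.4% in small subunit factors. The 29 snoRNAs within members had 111 counts in the fasted and 121 in the fed library together, most of them within Taf1d. These snoRNAs were thus not measured to any depth, and snoRNAs outside the members were not summed.

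**Figure D3:**
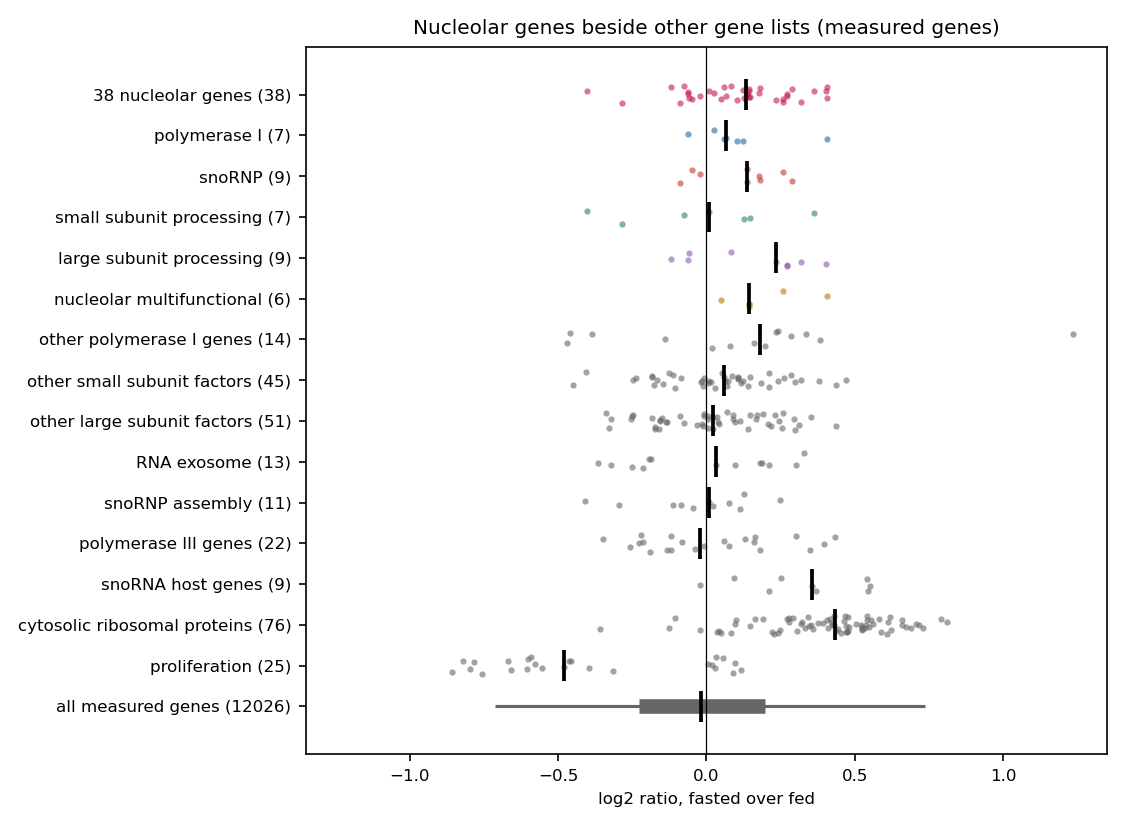
Log2 ratio of fasted over fed for the measured genes of each list, 1 point a gene, with the number of genes in brackets and a black bar at the median; for all measured genes the thick bar spans the middle 50% and the thin bar the 5th to the 95th percentile. Nucleolar roles have medians from 0.0099 to 0.23, between the proliferation genes at -0.48 and the ribosomal protein genes at 0.43.

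Other properties of the libraries moved in the same comparison. Proliferation genes had a median of -0.48, with 1 of 25 above and 17 below. Mki67 had 509.8 CPM in the fasted and 889.6 CPM in the fed library (-0.78, -0.85 to -0.72). The list was not uniform, with 8 positive ratios, and the gene above was Mcm2 at 0.12 (0.0094 to 0.22). Among the markers of stem cells 12 of 14 lay below, and they summed to 14915 CPM in the fasted and 22576 CPM in the fed library. Olfm4 alone made up 8257 CPM of the fasted and 14373 CPM of the fed sum. The median ratio of these markers was -0.30, and 1 of them, Ascl2, was positive at 0.10 (-0.04 to 0.25). Absorptive enterocyte markers had 13 of 15 above and summed to 4520.1 CPM in the fasted and 2524 CPM in the fed library. Fabp1 alone made up 806 CPM of the fasted and 29.8 CPM of the fed sum. Vil1 at -0.014 and Slc5a1 at 0.11 had intervals that held 0. Goblet cell markers had 6 of 8 above and summed to 1244 CPM in the fasted and 637 CPM in the fed library. Paneth cell markers had 1 of 8 above and 5 below. No marker of these 4 lists was at 0 in either library. The part of these shifts in the nucleolar ratios was not tested, and in bulk RNA fewer cells of a type and less RNA per cell cannot be told apart.

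Coding length moved with the ratio as well. Across the 38 genes the Spearman correlation of the log2 ratio with coding length was -0.54, and it was -0.46 over the 36 without Heatr1 and Utp20. Coding length was taken up after seeing the data, and with exon length in its place these values were -0.29 and -0.20. Across the 7210 coding genes in the members' range of level the correlation with coding length was -0.36. These are descriptions over genes that share their libraries. The 19 shorter members, of 192 to 1527 coding bases, had a median of 0.23, and the 19 longer ones, of 1614 to 8367 bases, had 0.06. When the running median over coding length was subtracted, Heatr1 stood at -0.21 and Utp20 at -0.09 (-0.24 to 0.07), an interval that held 0, and the median of the list was 0.16. Npm1 then stood at 0.34, Nip7 at 0.34 and Taf1d at 0.33, still the side of 0 they had before. The corrected large subunit median was 0.20 and that of polymerase I genes 0.14.

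**Figure D4:**
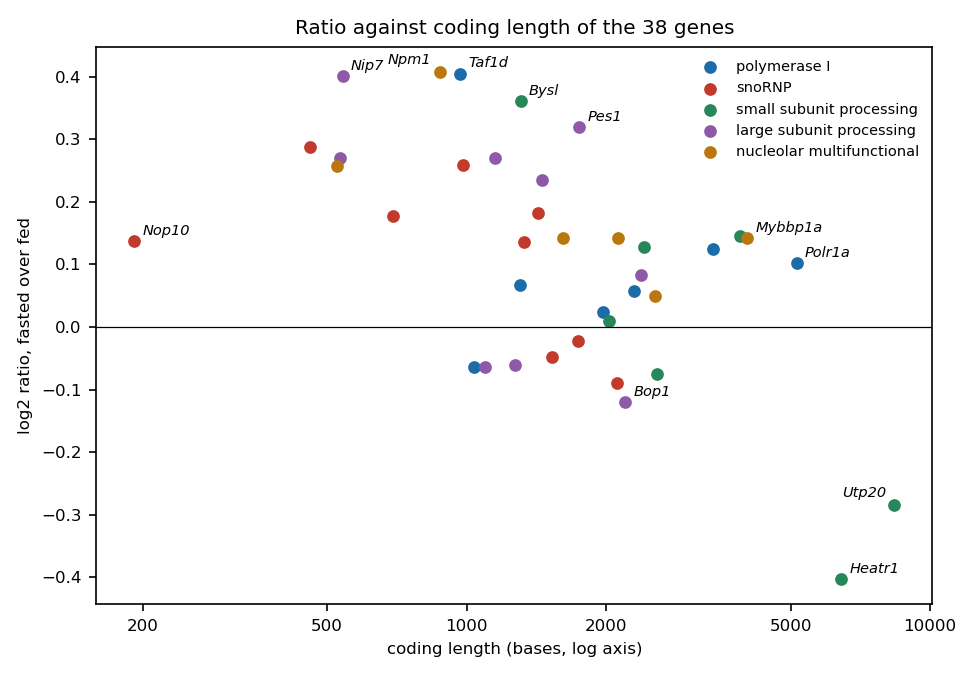
Log2 ratio of fasted over fed against coding length in bases (log axis) for the 38 genes, coloured by role, with some genes named. Utp20 and Heatr1, with 8367 and 6429 coding bases, have the lowest ratios, and Npm1, Taf1d and Nip7, with 876, 966 and 540 coding bases, the highest.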

How the data were processed

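Gene expression was measured by RNA sequencing (Illumina TruSeq kit, 1 ug of total RNA) in 1 fasted and 1 fed library. The authors deposited raw counts per Ensembl gene for each library. A further table, deposited as normalised counts, holds a signal that equals the deposited count divided by 0.842 in the fasted and 1.19 in the fed library. The deposited counts divided by these factors matched 100% of its values within 0.0051. These factors equal the median-of-ratios factors used here. It therefore called the same numbers of genes, 302 higher and 230 lower at 2-fold. FastQC, STAR, HTSeq and DESeq and the builds GRCm38 and mm10 are named, with no versions or roles, per the submitters' processing notes. Annotation and strand setting: not given in the sources used here.

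Symbols, exon and coding lengths (longest coding sequence of the principal isoforms) and coordinates came from GENCODE release M21 of GRCm38, which matched 45143 IDs; of 350 genes on other lists 5 found no ID in the files. Counts were scaled by median-of-ratios size factors, and intervals are exact 95% Clopper-Pearson intervals of the fasted share of a gene's reads. The procedure was tested on simulated counts that held counting error alone, which cannot show how the intervals fare with variation between mice. Python 3.11.15, SciPy 1.17.1 and, for TMM factors, edgeR 4.0.16 were used. Length corrections (exon, or coding length, added after seeing the data) subtracted a running median over 501 genes. Every member was named; of other lists the 2 highest and 2 lowest ratios at 5 CPM or more could be, with every MYC network gene and Lgr5, Olfm4 and Mki67. The members and lists were chosen with earlier results of these data known.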

Additional observations from a re-analysis of the deposited data

How the results depend on the processing

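The median log2 ratio of the 38 genes stayed positive, between 0.10 and 0.16, under the settings that could change it. These were 3 other scalings (TMM, upper quartile, total counts), both length corrections, summed counts and the 18 members without exon overlap. The authors' normalised table has the same scaling factors, and every member had a mean of at least 27.1 CPM. That table and a filter of 5 CPM or none thus could not change the members' ratios. No member reached 1.5-fold or 2-fold under any setting in which these counts were made. The length correction over coding length and the list without overlaps were chosen after seeing the data. Medians near 0 changed sign: that of the small subunit factors was -0.011 under total counts and -0.074 with summed counts, that of the PeBoW genes 0.069 after exon length correction and 0.068 with summed counts, and that of the snoRNP assembly genes -0.011 under total counts and -0.086 after exon length correction. Polymerase III genes turned to 0.00062 under upper-quartile factors and 0.011 after the correction for coding length, RNA exosome genes to -0.033 and MYC network genes to -0.035 after coding length correction, for which noncoding snoRNA hosts have no value. The causes were not tested. No member with an interval that excluded 1 changed sign, but the genes past 0 changed. After coding length correction 17 lay above and 1 below, against 12 and 2. There 6 were gained (Ddx21, Polr1a, Polr1b, Rrp12, Tsr1 and Ubtf) and 2 lost (Nop16 and Utp20). After exon length correction 3 were gained (Fbl, Polr1a and Polr1b) and 3 lost (Nhp2, Nop16 and Wdr74). Scaling moved the number above as well, to 11 under total counts and 13 under upper-quartile factors. Among all genes 176 were higher and 111 lower by 2-fold under the filter of 5 CPM, against 302 and 230. No paired analysis was possible because each group has 1 library, and none could be left out. How far libraries of 2 groups of mice would differ by chance is unknown, and ratios this small have no replicate check.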
